A study of Rattus norvegicus with 6 samples.

Results

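Genes of major histocompatibility complex (MHC) class II antigen presentation were examined in rupture-prone intracranial aneurysm (IA) lesions and, in the same rats, in what remained of the circle of Willis. The genes were chosen by symbol, and 7 of the 8 listed symbols were found among the 22081 genes of the expression table: RT1-Ba, RT1-Bb, RT1-Da, RT1-Db1, RT1-DMa, Cd74 and Ciita. RT1-DMb was not a symbol of the table, where the rows RT1-DMb_1 and RT1-DMb_2 stand, and these are described beside the members. RNA from 3 lesions and from 3 circle of Willis samples was sequenced, and every lesion was read against the artery of its own animal. All 6 samples came from female Sprague Dawley rats, sampled at day 63 after surgery by the labels, although one passage of the study's methods names an earlier day for sequencing. The surgery combined removal of both ovaries with ligation of the left carotid, right external carotid, right pterygopalatine and left renal arteries, and it was followed by chow with sodium chloride at 8% and 3-aminopropionitrile, an inhibitor of lysyl oxidase, at 0.12%. The control artery therefore shared every operation and the diet with the lesion, and no unoperated rat was analysed here. The lesions were unruptured and lay at an anterior or posterior communicating artery. The total count was between 65823027 and 70705938 per library.

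MHC class II molecules are pairs of an alpha and a beta chain that show peptides from endosomes to CD4 T cells. In the rat, RT1-Ba and RT1-Bb encode the chains of RT1-B, and RT1-Da and RT1-Db1 those of RT1-D. Cd74, the invariant chain, fills the groove of new class II molecules until it is cut away in the endosome, RT1-DM then exchanges the last piece of it for a peptide, and RT1-DO holds RT1-DM back. Ciita is the transactivator that switches these genes on together, with factors bound to the X and Y boxes of their promoters. Dendritic cells, B cells and many macrophages carry class II constitutively, and other cells can be induced to it by interferon gamma. The beta chain genes are among the most polymorphic genes known.

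The promoters are shown first because Ciita acts on these genes with factors bound to the X and Y boxes. RefSeq promoters of build GRCr8, which run from 250 bases before to 50 bases after each gene's start, were found for 6 of the 8 listed genes, all but Ciita and RT1-DMb. In the stretches of 85 bases below, written 5′ to 3′ on the strand of the gene, capitals mark an X box core (ACNGATG) and a Y box core (ATTGG).
RT1-Bb, chr20:4604155-4604239, minus strand: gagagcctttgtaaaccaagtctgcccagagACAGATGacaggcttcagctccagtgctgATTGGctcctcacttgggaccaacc
RT1-Da, chr20:4515306-4515390, plus strand: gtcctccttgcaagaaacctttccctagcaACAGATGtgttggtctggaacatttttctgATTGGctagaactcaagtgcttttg
RT1-Db1, chr20:4560218-4560302, minus strand: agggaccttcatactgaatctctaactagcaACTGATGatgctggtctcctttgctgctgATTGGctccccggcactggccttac
RT1-DMa, chr20:4712375-4712459, minus strand: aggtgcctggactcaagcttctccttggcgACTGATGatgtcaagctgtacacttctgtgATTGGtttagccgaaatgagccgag
RT1-Ba, chr20:4576954-4577038, plus strand: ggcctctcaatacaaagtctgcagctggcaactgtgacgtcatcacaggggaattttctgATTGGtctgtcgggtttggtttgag
Both motifs were searched on both strands, and the wording of the X box core was chosen after the sequences had been read. In RT1-Bb and RT1-Db1 the cores lay 22 bases apart, and in RT1-Da and RT1-DMa 23 bases apart. An X box core followed by a Y box core after 10 to 40 bases on the gene's strand was in these 4 of the 6 member promoters and in 49 of all 33469 promoters (0.146%). The Y box core alone was in all 6 member promoters, Cd74 included, and in 37.5% of all promoters. The X box core alone was in the same 4 members and in 10.2% of all promoters. A match to these letters is a description and does not show that a factor was bound. An X box spelled otherwise would be missed, so RT1-Ba and Cd74 are not shown to lack one.

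Class II transcripts were abundant in the control artery as well as in the lesion, and the order of the members was the same in both. Levels are given here as TPM, which is scaled for gene length. Cd74 was highest, at 987 ± 342 TPM in the lesions and 974 ± 510.2 TPM in the circle of Willis (SD, n = 3 each), and its range did not overlap that of any other member. RT1-Ba followed with 297 ± 98.4 and 276 ± 105 TPM, RT1-Db1 with 212 ± 53.1 and 201 ± 101 TPM, and RT1-Da with 174 ± 54.5 and 159 ± 59.8 TPM, in lesions and circle of Willis respectively. These 3 neighbours overlapped in both tissues. RT1-Bb lay below them at 77.5 ± 29.1 and 87.9 ± 61.5 TPM, and overlapped RT1-Da in the circle of Willis only. RT1-DMa, at 7.80 ± 6.68 and 4.44 ± 2.83 TPM, and Ciita, at 2.80 ± 1.05 and 1.88 ± 0.585 TPM, were low and overlapped each other. The low place of RT1-DMa is that of its row alone, since a second DM alpha row, LOC108348072, held most of the reads. Summed after their values were seen, the 2 rows had 83.5, 141 and 178 TPM in the lesions of animals 1, 2 and 3. In the circle of Willis the sum was 102, 55.2 and 90.0 TPM. RPKM gave every member the same place in the order. Within a library RPKM and TPM differ only by a constant factor, so this is no separate support.

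**Figure D1:**
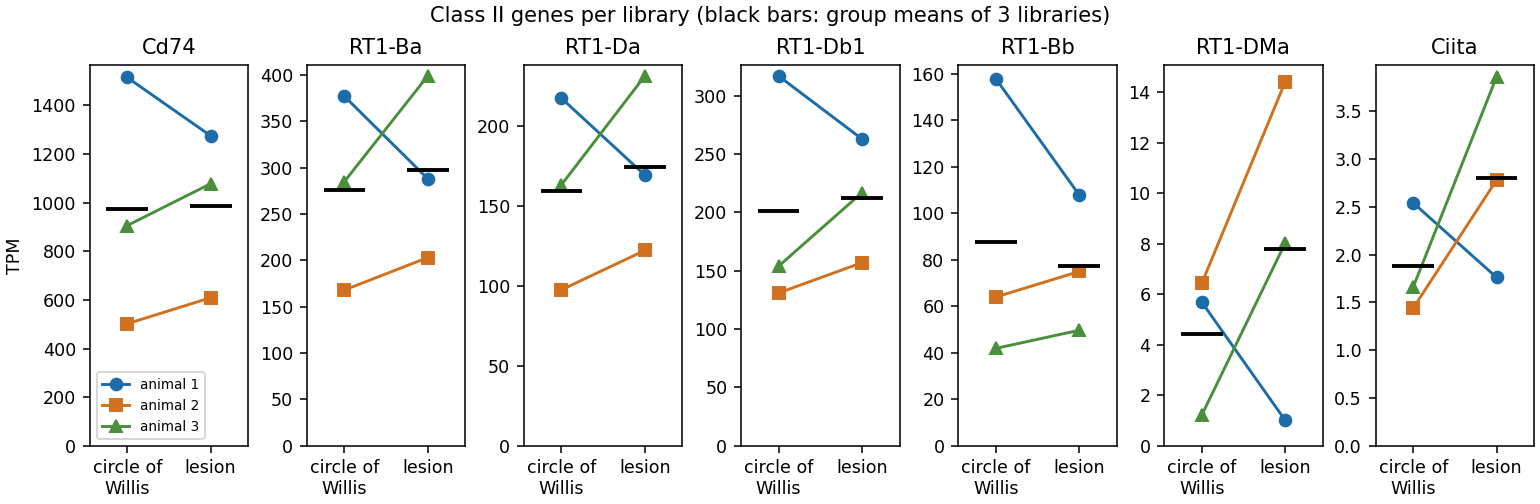
TPM of the 7 class II genes in the remaining circle of Willis and the lesion of each of 3 animals, joined by lines, with black bars for the means of 3 libraries and a separate vertical scale for each gene. The lines of animal 1 run down and those of animals 2 and 3 run up for every gene, and the circle of Willis of animal 1 holds the highest Cd74 value, 1515 TPM.

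The question put to each member was whether it differed between a lesion and the artery of the same animal. No member differed in the same direction in all 3 animals. Each of the 7 members had a log2 ratio below 0 in animal 1 and above 0 in animals 2 and 3. The log2 ratios, lesion over circle of Willis, were taken of TMM-normalized CPM after a prior count of 2 was added. The median of the members was -0.27, 0.22 and 0.49 in animals 1, 2 and 3, against 0.00, -0.05 and -0.04 for the 15367 genes tested. By the quasi-likelihood test of edgeR, blocked on the animal, with Benjamini-Hochberg adjustment over all genes, 0 of 7 members passed an adjusted p under 0.05 and 0 passed an unadjusted p under 0.05, in either direction. Of all genes tested, edgeR called 0% higher and 0% lower after adjustment, and, at an unadjusted p under 0.05, 8.63% as higher and 12% as lower. DESeq2 called 0 of the members, against 5.38% of all genes higher and 6.37% lower. By the study's own rule, a ratio over 1.5 in each of the 3 animals, 0 members were higher and 0 lower, where 2.75% of all genes tested were higher and 5.51% lower. Without animal 1, 2 members were higher by this rule, RT1-DMa and Ciita, as were 1646 of all genes tested. No member had lesions and circle of Willis without overlap, which 10.3% of the genes tested had with lesions higher and 11.6% with lesions lower. In bulk tissue, fewer cells of a type and less RNA per cell cannot be told apart.

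The invariant chain Cd74 (chromosome 18 of Rnor6, 56071478 to 56080849) had 1275, 609 and 1078 TPM in the lesions of animals 1, 2 and 3 and 1515, 502 and 906 TPM in their circle of Willis. The animals differed more than the tissues, with animal 2 lowest in both. The normalized CPM of Cd74 in the lesion was 0.915-fold, 1.16-fold and 1.19-fold that of the circle of Willis. Its mean log2 ratio was 0.11 (standard error 0.12, n = 3, edgeR adjusted p = 0.727). The limma-voom 95% interval of the change ran from -0.30 to 0.55 on the log2 scale.

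Among the chains of RT1-B, the alpha chain gene RT1-Ba (chromosome 20, 4066132 to 4070721) had 288, 203 and 399 TPM in the lesions and 377, 168 and 285 TPM in the control arteries, by animal. Its mean log2 ratio was 0.15 (standard error 0.22, edgeR adjusted p = 0.672), with a limma-voom 95% interval from -0.34 to 0.64. The beta chain gene RT1-Bb (chromosome 20, 4039413 to 4049711) had 108, 75.0 and 49.7 TPM in the lesions and 158, 64.0 and 41.9 TPM in the circle of Willis. Animal 1 was highest and animal 3 lowest in both tissues, unlike RT1-Ba, which was high in animal 3. The mean log2 ratio of RT1-Bb was -0.01 (standard error 0.21, edgeR adjusted p = 0.991), with an interval from -0.45 to 0.48.

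Among the chains of RT1-D, the alpha chain gene RT1-Da (chromosome 20, 4127644 to 4132616) had 169, 122 and 231 TPM in the lesions and 217, 97.4 and 163 TPM in the circle of Willis. The order of the 6 libraries was that of RT1-Ba. The beta chain gene RT1-Db1 (chromosome 20, 4087618 to 4097190) had 263, 157 and 217 TPM in the lesions and 317, 131 and 154 TPM in the circle of Willis. Lesions and control arteries overlapped for both genes. The mean log2 ratios were 0.18 for RT1-Da (standard error 0.22, edgeR adjusted p = 0.607) and 0.18 for RT1-Db1 (standard error 0.19, edgeR adjusted p = 0.558). The upper ends of their limma-voom 95% intervals were 0.66 and 0.63 on the log2 scale. RT1-Db2, a neighbouring beta chain gene, had 49 to 119 counts in all libraries, against 6611 to 17085 for RT1-Db1, and how reads shared by the 2 were assigned is not stated in the sources at hand.

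Over these 4 chains and Cd74, the log2 ratio of an animal never lay farther from 0 than 0.50. Of all genes tested, 35.3% stayed within that distance in each of 3 animals, so that such closeness is common in these libraries.

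For the beta chains, the ratio to the alpha chain differed more between animals than between the tissues of an animal. RT1-Da stood at 0.588, 0.601 and 0.577 of RT1-Ba by TPM in the lesions of animals 1, 2 and 3, and at 0.575, 0.581 and 0.573 in the circle of Willis, so that the alpha chains kept nearly the same proportion in all 6 libraries, with the lesion slightly higher in each animal. The beta chains varied more. RT1-Bb stood at 0.374 and 0.369 of RT1-Ba in the lesions of animals 1 and 2 but at 0.124 in that of animal 3, and at 0.419, 0.382 and 0.147 in the circle of Willis. RT1-Db1 stood at 1.55, 1.29 and 0.941 of RT1-Da in the lesions and at 1.46, 1.34 and 0.946 in the circle of Willis. Both beta chains were thus lowest against their alpha chain in animal 3, in the lesion and in the control artery alike, and the 2 tissues of an animal lay close together. Cd74 stood at 2.79, 1.87 and 1.71 times the sum of the alpha chains in the lesions and at 2.55, 1.89 and 2.02 times in the circle of Willis, highest in animal 1 in both tissues. These ratios are a description, and their cause was not tested.

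**Figure D2:**
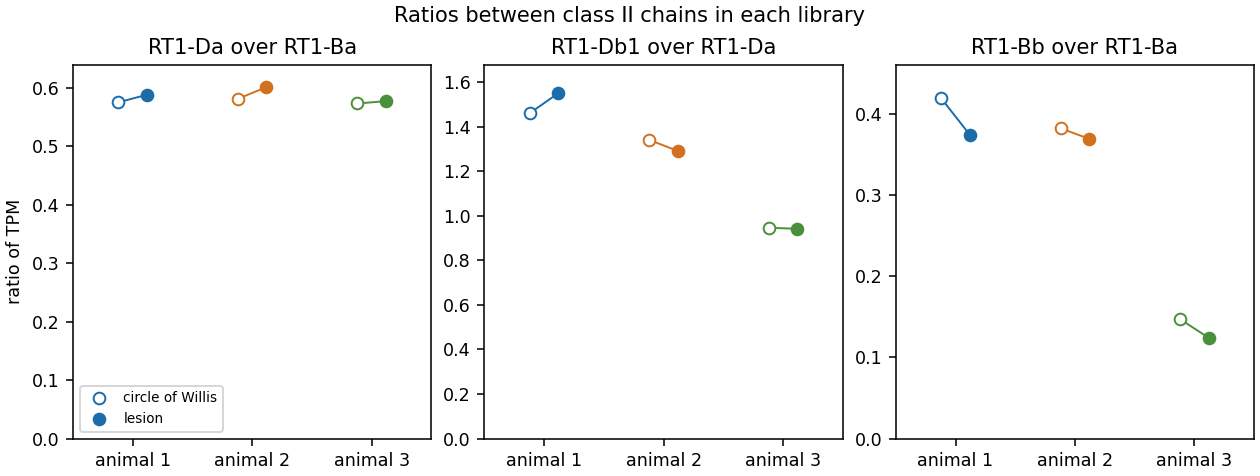
Ratios of TPM between class II chains in the circle of Willis (open points) and the lesion (filled points) of each animal, with the vertical axis from 0. RT1-Da over RT1-Ba stays between 0.573 and 0.601 in all 6 libraries, whereas RT1-Bb over RT1-Ba falls to 0.124 and 0.147 in animal 3.

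The transactivator Ciita (chromosome 10 of Rnor6, 5213350 to 5260608) had 1.76, 2.78 and 3.86 TPM in the lesions of animals 1, 2 and 3 and 2.54, 1.44 and 1.66 TPM in the circle of Willis. Its counts were 467, 646 and 1001 (lesions) and 641, 339 and 422 (circle of Willis). The lesion was higher in animals 2 and 3 and lower in animal 1, and the groups overlapped. The normalized CPM of the lesion was 0.755-fold, 1.86-fold and 2.33-fold that of the artery, a mean log2 ratio of 0.57 (standard error 0.49, edgeR adjusted p = 0.412, limma-voom 95% interval from -0.37 to 1.54). Ciita and RT1-DMa were the 2 of 7 members over 1.5-fold higher in animal 2 and again in animal 3, where 18.6% and 17.8% of all genes tested were, and 0 members were over 1.5-fold lower there, against 18.7% and 24.6%. In animal 1 only RT1-DMa was over 1.5-fold lower, as were 17.5% of the genes tested, and 0 were over 1.5-fold higher, against 8.51%. Per 1000 TPM of Cd74, Ciita had 1.38, 4.57 and 3.58 TPM in the lesions and 1.68, 2.86 and 1.83 TPM in the circle of Willis, so that animals 2 and 3 had more Ciita for each Cd74 transcript in the lesion than in the artery.

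RT1-DMa, the alpha chain of the peptide exchanger, varied more than any other member, and its row holds a small part of the DM alpha reads. It had 53, 663 and 413 counts (lesions of animals 1, 2 and 3) and 285, 302 and 61 counts (control arteries), which are 1.01, 14.4 and 8.02 TPM and 5.69, 6.43 and 1.21 TPM. The log2 ratios were -2.33, 1.09 and 2.69, with a mean of 0.48 (standard error 1.48, edgeR adjusted p = 0.77). A second row, LOC108348072, is named in the table as an M alpha chain of class II, and it had 4238, 5707 and 8556 counts (lesions) against 4697, 2238 and 4375 counts (control arteries). RT1-DMa held between 1.24% and 11.9% of the counts of the 2 rows together. On chromosome 20 of Rnor6, LOC108348072 (3935529 to 3938915) lies 6686 bases from RT1-DMb_1 (3945601 to 3952846), and RT1-DMa (5240975 to 5244386) lies 6685 bases from RT1-DMb_2 (5227045 to 5234290). The 2 DMb rows are of the same length, 7246 bases, and their counts differed little, with RT1-DMb_1 at 0.945 to 0.997 of RT1-DMb_2 in the 6 libraries. The value of RT1-DMa alone is therefore uncertain, since reads of near-identical copies may be split between the rows.

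With RT1-DMa and LOC108348072 summed, a step chosen after their values were seen, the counts were 4291, 6370 and 8969 (lesions) and 4982, 2540 and 4436 (control arteries). The log2 ratios of the sum were -0.16, 1.29 and 0.99, close to those of the DM beta rows. RT1-DMb_1, the beta chain of DM, had 48.9, 74.6 and 105 TPM in the lesions and 55.4, 29.2 and 52.1 TPM in the circle of Willis. Animals 2 and 3 had higher values in the lesion and animal 1 a slightly lower one. The mean log2 ratio of RT1-DMb_1 was 0.75 (standard error 0.41, edgeR adjusted p = 0.25) and that of RT1-DMb_2 was 0.74 (standard error 0.39, edgeR adjusted p = 0.244).

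The chains of RT1-DO, which restrains DM, were low but measured. RT1-DOa had 3.27, 4.13 and 4.87 TPM in the lesions and 3.39, 1.82 and 2.54 TPM in the circle of Willis. By normalized CPM its lesions, at 2.82, 3.00 and 3.86, did not overlap the control arteries, at 2.70, 1.38 and 2.01. Of all genes tested, 10.3% had such a separation with lesions higher. In animal 1 it rested on 185 against 183 counts, and by TPM the groups overlapped. The mean log2 ratio of RT1-DOa was 0.70 (standard error 0.32, edgeR adjusted p = 0.306). RT1-DOb had 2.89, 3.79 and 3.41 TPM in the lesions and 3.53, 2.10 and 1.52 TPM in the circle of Willis, a mean log2 ratio of 0.59 (standard error 0.39, edgeR adjusted p = 0.406). RT1-Ha had 4 to 28 counts per library and did not pass the filter on low counts.

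Set side by side, the genes of peptide loading and of regulation (LOC108348072, RT1-DMb_1, RT1-DOa, RT1-DOb and Ciita) had a mean log2 ratio of -0.13, 1.08 and 1.05 in animals 1, 2 and 3, and the 4 presenting chains with Cd74 had -0.24, 0.21 and 0.40. The difference was 0.11, 0.86 and 0.65. This grouping was made after the values had been seen, and it is given with no test.

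**Figure D3:**
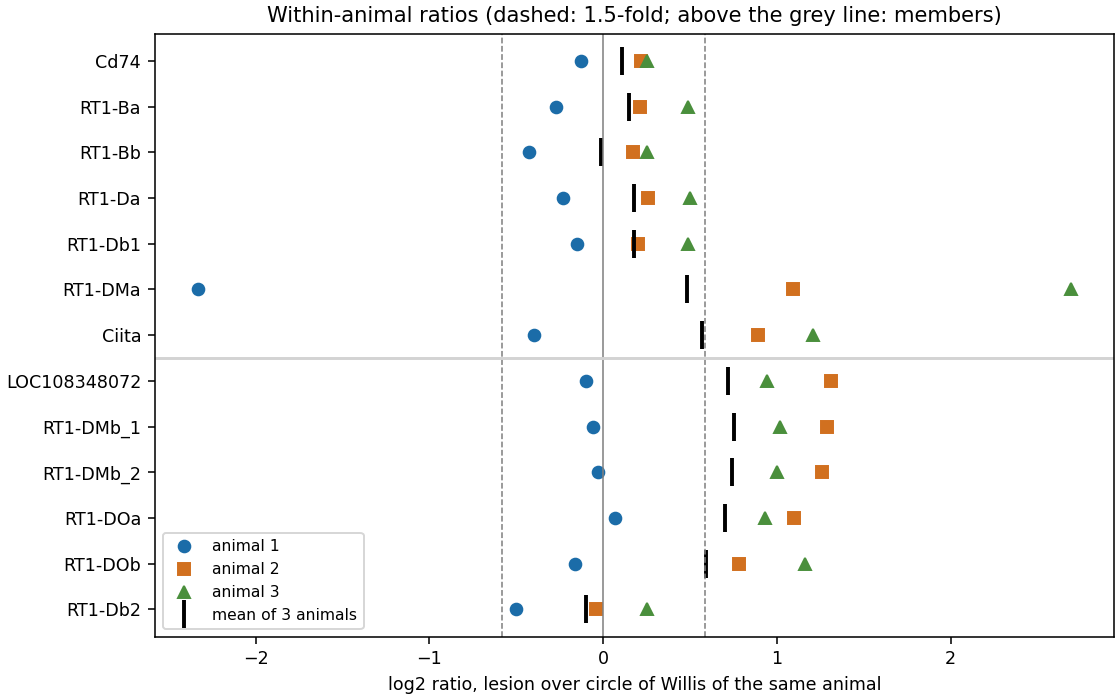
Log2 ratio of normalized CPM, lesion over circle of Willis, in each of 3 animals (points) with their mean (black bar), for the 7 members above the grey line and for other class II rows below it, with dashed lines at 1.5-fold. Cd74 and the 4 presenting chains stay within 0.50 of 0 in every animal, whereas Ciita, LOC108348072, the RT1-DMb rows and the RT1-DO chains lie between 0.78 and 1.31 in animals 2 and 3.

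Leukocyte markers had larger ratios than the presenting chains in the same lesions. Ptprc, the CD45 phosphatase of leukocytes, had 9.64, 15.1 and 25.8 TPM in the lesions and 10.9, 4.86 and 6.97 TPM in the circle of Willis. Cd74 stood at 132, 40.3 and 41.8 times Ptprc in the lesions of animals 1, 2 and 3 and at 139, 103 and 130.0 times in the circle of Willis. The lesions of animals 2 and 3 therefore lay below every control artery, and the lesion of animal 1 lay among them. RT1-Ba stood at 29.9, 13.5 and 15.5 times Ptprc in the lesions and at 34.6, 34.5 and 40.9 times in the circle of Willis. LOC108348072 moved less, at 8.55, 8.39 and 6.59 times Ptprc in the lesions and 8.81, 10.1 and 12.7 times in the circle of Willis. Against single genes of macrophages the direction depended on the gene. Cd74 stood at 7.62, 2.54 and 2.90 times Aif1, an actin-bundling protein of macrophages and microglia, in the lesions and at 8.93, 5.01 and 5.85 times in the circle of Willis. Against Cd68, a lysosomal membrane protein of macrophages, it stood at 15.2, 2.70 and 1.91 times in the lesions and at 38.6, 10.7 and 21.2 times in the circle of Willis. Other genes of the macrophage list went the other way. Cd163 and Lyve1, a hyaluronan receptor of resident macrophages, had lower log2 ratios than Cd74 in all 3 animals, at -1.59, -1.48 and -0.63 and at -0.87, -0.68 and -0.10, against -0.13, 0.22 and 0.25 for Cd74. Mrc1, the mannose receptor, did so in animals 1 and 2, at -0.50 and -0.48. These ratios to single markers were chosen after the values had been seen.

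**Figure D4:**
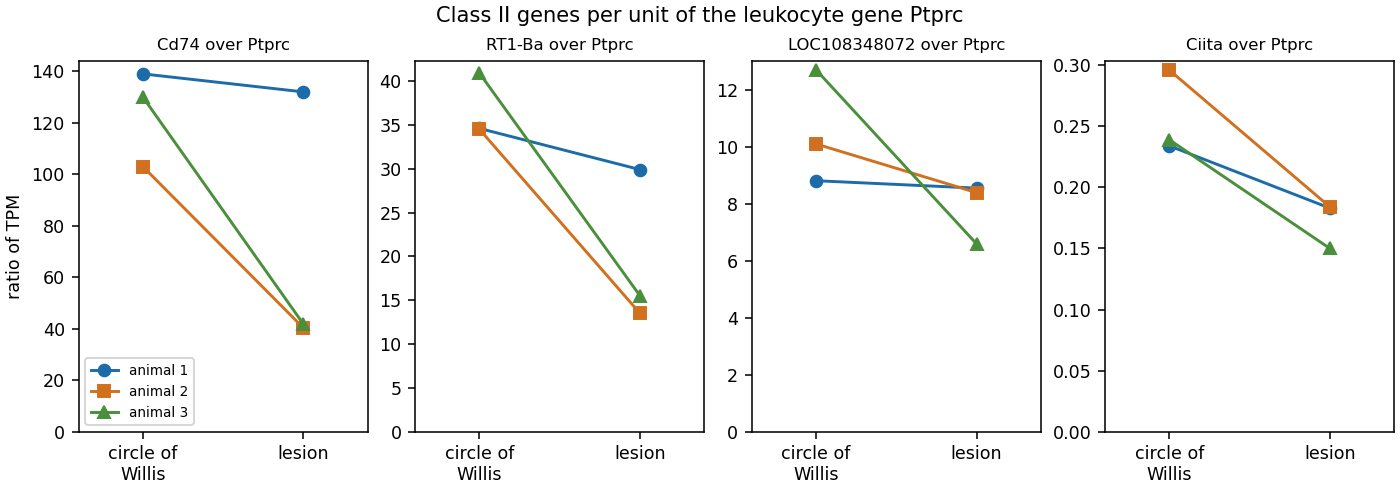
Ratio of the TPM of Cd74, RT1-Ba, LOC108348072 and Ciita to that of Ptprc in the circle of Willis and the lesion of each animal, joined by lines, with vertical axes from 0. Cd74 over Ptprc falls from 103 to 40.3 in animal 2 and from 130.0 to 41.8 in animal 3, and moves from 139 to 132 in animal 1.

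Over whole lists, the mean log2 level of the 7 members relative to 6 pan-leukocyte markers was lower in the lesion by 0.77, 1.31 and 1.10 in animals 1, 2 and 3, a mean difference of -1.06 (standard error 0.16, lower in 3 of 3 animals). An exact two-sided sign-flip permutation test gave p = 0.25, the smallest that 3 animals allow. Without RT1-DMa, whose row is uncertain, the difference was -0.47, -1.42 and -1.40 (standard error 0.31), and with medians over the genes of both lists it was -0.26, -1.46 and -1.26 (standard error 0.37), so that the size in animal 1 rests on RT1-DMa and on the summary used. Relative to 12 macrophage markers, the members differed by -0.37, -0.16 and -0.29, a mean of -0.27 (standard error 0.06, exact permutation p = 0.25, again the smallest possible). Without RT1-DMa it was -0.07, -0.27 and -0.59 (standard error 0.15), close to 0 in animal 1. With medians in place of means over the genes of the lists, it was -0.47, -0.81 and -1.04, a mean of -0.77 (standard error 0.17). The whole marker lists moved as follows. The summed TPM of the pan-leukocyte markers was 594 to 2282 in the lesions and 347 to 514 in the circle of Willis, and 1 of 6 was over 1.5-fold higher in all 3 animals, Cd53, a tetraspanin of leukocytes. That count was 0 with ratios of TPM and 0 at a fold over 2. The summed TPM of the macrophage markers was 1116 to 3563 in the lesions and 869 to 1241 in the circle of Willis. Of these 12 markers, Cd68 was over 1.5-fold higher in all 3 animals, with log2 ratios of 1.21, 2.20 and 3.73. Cd163, a scavenger receptor of resident macrophages, was over 1.5-fold lower in all 3, with -1.59, -1.48 and -0.63. Among all genes tested, 2.75% were over 1.5-fold higher in all 3 animals and 5.51% lower. Without animal 1, 6 of 6 pan-leukocyte and 7 of 12 macrophage markers were over 1.5-fold higher, as were 1646 of the 15367 genes tested. The part of these cells in the class II values was not tested.

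The markers of other antigen-presenting cells differed in level and in direction. Many were low, but among the dendritic cell markers Clec10a had 38.5 to 65.3 TPM and Irf8 had 12.8 to 108 TPM. Of 14 dendritic cell markers, 13 were tested, and their median log2 ratio was 0.06, 0.22 and 1.10 in animals 1, 2 and 3. Itgax, the CD11c integrin of dendritic cells and of many macrophages, was the 1 gene over 1.5-fold higher in all 3 animals, at 0.86, 2.53 and 2.49 (edgeR adjusted p = 0.181). By that rule 2.75% of all genes tested were higher. Clec10a, a C-type lectin of dendritic cells and macrophages, had -0.64, -0.57 and -0.52 (edgeR adjusted p = 0.176), and Ly75, the endocytic receptor DEC-205, had -1.14, -1.53 and -0.56 (edgeR adjusted p = 0.2). The defining markers Xcr1 and Clec9a of cross-presenting dendritic cells lay between 0.145 and 0.906 TPM and between 0.527 and 2.60 TPM in the 6 libraries. Among the B cell markers, the summed TPM was at least 7.60 in each lesion and at most 4.87 in each control artery. The single markers did not all follow this sum. In animal 3, Cd79a, Cd79b and Ms4a1 had log2 ratios of -0.1, -0.52 and -0.02, whereas the other B cell markers tested were higher in the lesion. Cd22 and Blk had the highest TPM of the list in that lesion. The separation of the sums was not tested. No marker of either list was at 0 in a library. The summed TPM of the dendritic cell markers was 93.3, 150.3 and 209 in the lesions of animals 1, 2 and 3 and 127, 111 and 115 in their control arteries. The highest Cd74 value among the lesions, in animal 1, stood beside the lowest of these sums, and among the control arteries beside the highest.

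Genes that act on the class II molecule before and after loading came next. Of 8 genes of invariant chain processing and antigen breakdown, 5 passed an unadjusted p under 0.05 as higher and 0 as lower, DESeq2 called 4 higher, and 0 passed edgeR's adjustment. Among all genes tested, 8.63% passed the unadjusted p as higher and 12% as lower, and DESeq2 called 5.38% higher. The median log2 ratio of the 8 genes was 0.38, 0.81 and 1.56 in animals 1, 2 and 3. Ctsd, the lysosomal aspartic proteinase cathepsin D, had 0.71, 1.73 and 2.97, and Ctsb, the cysteine proteinase cathepsin B, had 0.64, 0.71 and 2.07. Ifi30, a thiol reductase that unfolds antigens, had 0.35, 0.91 and 1.96 (edgeR adjusted p = 0.218). Ctss, the cathepsin that makes the main late cuts in the invariant chain of dendritic cells and B cells, had 100.2, 258 and 369 TPM in the lesions and 152, 99.0 and 164 TPM in the circle of Willis, in the pattern of Ciita. Of these 8 genes, Ctsd and Ctsb were over 1.5-fold higher in all 3 animals, as were 2.75% of all genes tested. Without animal 1, 5 of the 8 were, as were 1646 of the 15367 genes tested. In all 3 animals, with ratios of TPM, 1 of the 8 was, and at a fold over 2 the count was 0. Of the 4 class II turnover genes tested none passed an unadjusted p under 0.05, and March1, the ubiquitin ligase that removes surface class II, had -1.31, 1.61 and 1.35 (edgeR adjusted p = 0.64).

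Of 7 genes of the complex that binds the X and Y boxes, 0 passed an unadjusted p under 0.05, against 8.63% of all genes tested as higher and 12% as lower. Rfx5, a subunit of the factor at the X box, had log2 ratios of -0.27, -0.38 and -0.20 (edgeR adjusted p = 0.264). Creb1, which binds beside it, had -0.95, -0.25 and -0.89 (edgeR adjusted p = 0.256), and Nfya, a subunit of the Y box factor, had 0.13, -0.11 and 0.62 (edgeR adjusted p = 0.515).

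The interferon gamma route was followed from the cytokine to its target genes. Of 7 genes of interferon gamma signalling tested, 2 passed an unadjusted p under 0.05 as higher, against 8.63% of all genes tested, and both were receptor chains. Ifngr1 had 100.2, 178 and 280.2 TPM in the lesions and 90.3, 82.3 and 107 TPM in the circle of Willis (edgeR adjusted p = 0.203, DESeq2 adjusted p = 0.0167). Ifngr2 had log2 ratios of 0.22, 0.78 and 1.13. Jak1, a kinase of the receptor, had -0.33, -0.33 and -0.02. The cytokine Ifng itself was at 0 counts in 3 libraries, the lesions of animals 1 and 2 and the control artery of animal 3, and had at most 4 counts in the others. Of 12 interferon gamma induced genes tested, 0 passed an unadjusted p under 0.05, 0 were over 1.5-fold higher in all 3 animals and 0 lower. The shares of all genes tested were 8.63% higher and 12% lower at that p, and 2.75% higher and 5.51% lower by the fold rule. The median log2 ratio of the 12 genes was 0.22, -0.30 and 0.61. Psmb8 and Tap1, genes of class I peptide supply that lie in the class II region, had log2 ratios of 0.21, 0.02 and 0.61 and of 0.04, 0.22 and 0.61.

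Costimulatory ligands and T cell genes were mixed. The summed TPM of the costimulatory ligands was 148, 194 and 196 (lesions) and 159, 201 and 176 (control arteries). Most of each sum was Cd48, at 88.0, 133 and 119.9 TPM (lesions) and 94.5, 134 and 127 TPM (control arteries). The sums therefore say little of the ligands with lower levels. Cd86, a ligand of CD28 on antigen-presenting cells, had 5.67, 10.3 and 25.5 TPM in the lesions and 4.74, 3.17 and 5.77 TPM in the circle of Willis, with log2 ratios of 0.38, 1.63 and 2.14 (edgeR adjusted p = 0.204, DESeq2 adjusted p = 0.00967). Tnfsf9, the ligand of 4-1BB, had 0.43, 2.17 and 2.03. Of 8 costimulatory ligands tested, 3 passed an unadjusted p under 0.05 as higher. Of 13 T cell genes tested, 4 did, and Ctla4, the inhibitory receptor of T cells, was over 1.5-fold higher in all 3 animals, at 0.94, 1.37 and 1.86 (edgeR adjusted p = 0.207). Among all genes tested, 8.63% passed that unadjusted p as higher and 2.75% were over 1.5-fold higher in all 3 animals. Cd4, the co-receptor that binds class II and that rat macrophages also carry, had 25.5, 30.1 and 60.8 TPM in the lesions. In the circle of Willis Cd4 had 57.8, 29.2 and 40.7 TPM, so that animal 1 was lower in the lesion. The T cell list was not lower by its median log2 ratio, which was 0.23, 0.44 and 1.13 in animals 1, 2 and 3. Its summed TPM, Cd4 included, was lower in animal 1, at 68.2, 66.4 and 119 (lesions) and 97.6, 50.5 and 66.6 (control arteries). By log2 ratio, Cd3d, Cd28 and Cd40lg were also lower in the lesion of animal 1. The other T cell genes tested were higher there, Cd3e, Cd3g and Lck among them.

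The tissues held other cells in unequal amounts. The summed TPM of 7 smooth muscle markers was 6564, 8168 and 2962 (lesions) and 8781, 4979.8 and 14558 (circle of Willis). That of 6 myelin markers was 361, 4088 and 492 (lesions) and 134, 122 and 381 (circle of Willis). The choroid plexus markers, Ttr among them, summed to 13143 TPM in the lesion of animal 2 and to between 58.4 and 310.1 TPM in the other libraries. Their part in the class II values was not tested. Of the 7 neutrophil markers tested, 4 were over 1.5-fold higher in all 3 animals, and of 6 microglia markers 1 was. Of 6 endothelial markers 3 passed an unadjusted p under 0.05 as lower, and of 7 neuron markers 1 did. Among all genes tested, 2.75% were over 1.5-fold higher in all 3 animals and 12% passed that p as lower.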

How the data were processed

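Bulk RNA sequencing data of 3 lesions and 3 samples of the remaining circle of Willis were grouped by tissue and animal from the labels. Per the study's methods, paired reads were aligned against Rnor6 with the CLC genomics workbench; CASAVA stands in the submitters' processing notes. For every gene and library the authors deposited a raw count, an RPKM (per gene length and library size) and a TPM (summing alike over libraries). The deposited table also holds 6 columns of a scaled CPM and the authors' own comparisons (fold changes, p-values and adjusted p-values), which were not used.

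The counts went into glmQLFTest of edgeR (version 4.0.16, R version 4.3.3), with TMM factors, filterByExpr and the animal as a block, and adjusted by Benjamini-Hochberg over 15367 genes. DESeq2 (version 1.42.0) and limma-voom (version 3.58.1) were alternatives, and limma-voom gave the 95% intervals. Standard errors come from 3 within-animal log2 ratios with a prior count of 2, which understates changes of genes with few counts. The pairing comes from the animal: deviations of its 2 libraries from the group means correlated at 0.389, 0.300 and 0.0688 across genes, which are not independent. On simulated data of 15367 genes, 200 of them changed, the steps were tested, and edgeR recovered 100% of the 8-fold changes. The simulation gave all genes the same dispersion and held no difference between animals. It therefore does not show which changes edgeR could find in the real libraries, where it called 0 genes after adjustment. Replicates are separate animals. Alternatives changed the scaling, the filter, the test, the fold threshold or the prior count (0.5), or left an animal out. The wording of the motif, the summed DM alpha rows and the ratios to single markers were chosen after seeing the data.

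The members and the 20 gene lists, of whose 164 genes 162 were found by symbol, were chosen with earlier results of these data known, so their results are not independent of them. Genes named are all members, up to 3 genes of a list with the smallest p, genes over 1.5-fold lower in all 3 animals, defining markers near 0, and the 8 genes most like the members. Names beyond these, such as Ctss, Cd4, Ptprc, Aif1, Ifng, Ttr, LOC108348072, RT1-Ha and the RT1-DMb rows, were chosen after their values were seen. Promoters are from RefSeq (GRCr8), and coordinates of genes are those of the deposited table. The values of 1 marker gene are not reported here.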

Additional observations from a re-analysis of the deposited data

How the results depend on the processing

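The count of 0 members called by edgeR after adjustment, in either direction, was also found with DESeq2's size factors, no filter on low counts, at least 1 CPM in 3 libraries, DESeq2, limma-voom, no replicate block and each animal left out. Apart from the DESeq2 test and the fit with no replicate block, these settings called 0 of all genes tested, higher or lower. A count of 0 members was therefore fixed in them and tells nothing of the members. Without the pairing of the animals, the fit with no replicate block called 1 of all genes tested lower and 0 higher. DESeq2 called 826 of all genes higher and 979 lower. Counting ratios past 1.5 in every animal, 0 to 2 members were higher with an animal left out, the 2 being RT1-DMa and Ciita without animal 1. Over all genes the counts with an animal left out were 587 to 1646 higher and 1060 to 1922 lower, against 423 and 847, and a fold over 2 gave 190 and 299. The members' difference from the macrophage markers moved from -0.27 to -0.77 with medians over the list genes. At a fold over 2, the dendritic cell markers higher in all 3 animals and the macrophage markers lower in all 3 also fell from 1 to 0. Itgax was 1.82-fold in animal 1 and Cd163 was 0.645-fold in animal 3, so that neither reached a fold over 2 in all 3 animals. The cause of the move with medians was not tested. The mean log2 ratio of RT1-Bb, -0.01, turned to 0.02 with DESeq2's size factors, 0.02 with DESeq2 and 0.01 with limma-voom, and was -0.13 to 0.21 with an animal left out. With an animal left out, RT1-Ba was -0.03 to 0.35 and RT1-DMa -0.62 to 1.89, both below 0 without animal 3, and Ciita was 0.24 to 1.05. RT1-DMa and LOC108348072 summed had 0.70 (standard error 0.44). Depth limits Ifng, with at most 4 counts in a library, and RT1-Ha, with at most 28.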

Other observations

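Class I genes were followed beside class II because both are read by T cells. By edgeR's quasi-likelihood test, 1 of 12 class I pathway genes passed an unadjusted p under 0.05 as higher, against 8.63% of all genes tested. After adjustment 0 of the 12 passed, and DESeq2 called 0. The 1 gene at an unadjusted p under 0.05 was RT1-CE10, a class I gene, whose log2 ratio was 0.33, 0.40 and 0.68 by animal (edgeR adjusted p = 0.203). B2m, the light chain of class I, had 1335, 1867 and 2347 TPM in the lesions and 1164, 1483 and 1531 TPM in the circle of Willis, and was thus higher in the lesion of each animal, animal 1 included, at log2 ratios of 0.32, 0.27 and 0.62 (edgeR adjusted p = 0.295). RT1-A1 had 0.13, 0.29 and 0.70 (edgeR adjusted p = 0.265). The median of the 12 genes was 0.08, 0.04 and 0.53 in animals 1, 2 and 3. Others of the list were lower in the lesion. Tap2 had -0.02, -0.56 and -0.11, Tapbp had -0.24, -0.25 and -0.04, and RT1-A2 had -0.15 in animal 1 only. Reads of class I genes may be split between near-identical copies, so these values are uncertain.

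Over the 6 libraries, the log2 CPM of 8 genes followed the mean standardized level of the 7 members most closely among 13573 genes with a mean CPM of at least 1: Ppp6r1, AC142181.1, Med18, Nrf1, Cdc25b, Mark2, Zfp646 and Ddi2, with Pearson r from 0.953 to 0.975. Their log2 ratios were at or below -0.04 in animal 1 and at or above 0.03 in animals 2 and 3. That they share the members' pattern follows from the way they were chosen. The 6 libraries come from 3 animals, and r is given as a description. Of the members themselves, RT1-Db1 had an r of 0.919 with their mean and RT1-DMa 0.0404, and each is itself part of that mean.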
